A study of Mus musculus with 14 samples.

Results

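The array carried 241 probes that are named for a human miRNA and for no mouse miRNA, among 1308 probes named for the miRNA of any species. They were found by their printed names, which hold the human prefix hsa- and lack the mouse prefix mmu-. Each was printed in 3 spots except hsa-miR-545, which had 6. None of the 241 carried the manufacturer's miRPlus prefix. The remaining named probes were 343 with a mouse name, 93 named for viral miRNAs and 631 named for other species.

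MicroRNA was measured in total RNA of adherent peritoneal macrophages from BALB/c mice on 14 one-colour arrays (7 slides of 2 arrays), and the adherent cells were mostly, not wholly, macrophages by surface staining, per the labels' protocols. Nematode macrophages were taken 21 days after the filarial nematode Brugia malayi was placed in the peritoneum, from mice without the IL-4 receptor (nematode IL-4R KO, 4 arrays) and from wild-type mice (nematode wild type, 4 arrays). Thioglycollate macrophages were taken 3 days after injection of this sterile irritant, again from knockout mice (thioglycollate IL-4R KO, 3 arrays) and wild-type mice (thioglycollate wild type, 3 arrays). The time of harvest and the elicitation cannot be told apart, the array has no probe for the receptor's mRNA, and no label states whether the arrays of a group stem from different mice, so p-values measure the spread between arrays, which may be technical.

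A miRNA array probe is a short oligonucleotide complementary to a mature miRNA, and a labelled RNA that is close enough in sequence can hybridise to it whatever species it is named for. Human-named probes therefore fall into different kinds. Some target miRNAs that mouse shares, such as let-7a, a conserved regulator of differentiation, and miR-155, which activated macrophages make from the Bic transcript. Others target miRNAs known from primates, such as the placental cluster on human chromosome 19, or sequences first listed from sequencing of human cells. The IL-4 receptor carries the IL-4 and IL-13 signals that induce alternative activation of macrophages.

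Of the 241 names, 61 matched a miRNA in the RefSeq mouse table (build GRCm38.p6) by number and letter, ignoring the arm, and 180 did not. The mature let-7 forms of mouse are shown because the hsa-let-7a probe was one of 4 that stood above blank spots on every array and the array held separate mouse-named probes for its relatives. Capitals mark the seed, bases 2 to 8.
mmu-let-7a-5p: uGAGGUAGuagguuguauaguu
mmu-let-7c-5p: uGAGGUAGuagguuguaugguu
mmu-let-7e-5p: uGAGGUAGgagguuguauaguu
mmu-let-7f-5p: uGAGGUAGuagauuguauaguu
mmu-let-7b-5p: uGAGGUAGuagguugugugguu
mmu-let-7d-5p: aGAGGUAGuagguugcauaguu
mmu-let-7g-5p: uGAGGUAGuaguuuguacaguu
mmu-let-7i-5p: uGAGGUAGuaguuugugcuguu
All 8 share the seed. Of the 22 bases, let-7c, let-7e and let-7f each differ from let-7a at 1, let-7b, let-7d and let-7g at 2, and let-7i at 4. The let-7a form shown lies at chr13:48538239-48538260 on the minus strand, in the miRNA gene Mirlet7a-1.

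A second set of mouse mature forms is shown because the human-named probe of the same number had a mouse-named probe beside it on the array.
mmu-miR-155-5p: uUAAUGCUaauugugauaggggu
mmu-miR-503-5p: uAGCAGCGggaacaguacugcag
mmu-miR-34a-5p: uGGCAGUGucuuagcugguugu
mmu-miR-34b-5p: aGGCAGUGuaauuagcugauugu
These lie in the miRNA genes Mir155 (chr16:84714143-84714165, plus strand), Mir503 (chrX:53054027-53054049, minus strand), Mir34a (chr4:150068473-150068494, plus strand) and Mir34b (chr9:51103610-51103632, minus strand). The miR-34a and miR-34b forms share 1 seed.

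Levels are given as net signal, the foreground minus the local background of a spot in the scanner's intensity units, averaged over the spots of a probe. A probe was counted as above blank spots on an array where this exceeded the 95th percentile of that array's 702 blank and 24 negative control spots. That percentile ran between 12.6 and 111 intensity units over the 14 arrays, so the level a probe had to exceed differed between arrays. Nematode wild type replicate 4 had the highest percentile and a correlation of 0.659 with the mean of its group over all named probes, against 0.886 to 0.961 for the other 13 arrays. Mouse-named markers were set beside the macrophage label, and their detection alone does not establish the cell type. miR-223, miR-142-3p and miR-142-5p of myeloid and haematopoietic cells stood above blank spots on 14 of 14 arrays each. The lymphocyte markers did so on 8 (miR-150) and 3 (miR-181a) arrays, the muscle and epithelial ones on 1 to 5, and the liver marker miR-122a on 0. Marker levels differed between groups in the limma fit described below. miR-150 was higher in nematode IL-4R KO than in thioglycollate IL-4R KO (log2 fold change 1.01, limma adjusted p = 0.00359) and nematode wild type (0.96, adjusted p = 0.00193). miR-223 was lower in nematode IL-4R KO than in nematode wild type (-1.31, adjusted p = 0.00333).

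Most human-named probes gave little signal. Their median net signal was 11.3 to 19.9 intensity units per array. Of the 241, 4 stood above blank spots on all 14 arrays, 118 on at least 3 arrays and 24 on none. These counts depend on the threshold: they were 0, 22 and 146 with the 99th percentile, 0, 12 and 209 with the highest negative control spot, and 1, 56 and 83 with foreground signal in place of net signal. A further 99 did so on only 1 or 2 arrays. The share above blank spots was 14.9% to 21.2% per array in nematode IL-4R KO, 7.88% to 32.0% in nematode wild type, 11.6% to 63.1% in thioglycollate IL-4R KO and 10.4% to 67.6% in thioglycollate wild type. The 2 highest shares belonged to replicate 3 of both thioglycollate groups (wild type, then IL-4R KO), where the percentile of the blanks was 12.6 and 15.0 intensity units. These group ranges overlap.

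Human-named probes were above blank spots less often than mouse-named probes on all 14 arrays. The share averaged 24.9% ± 18.7 for human-named and 40.5% ± 20.001 for mouse-named probes (SD, n = 14 arrays), a mean difference of -15.6 percentage points (SD 5.88). A two-sided exact permutation test that flips the sign of each array's difference gave p = 0.000122, the smallest value that 14 arrays can give. The same probes are read on every array, so this test measures the spread between arrays and not that among probes. Against virus-named probes, which have no host gene, the difference was 0.86 percentage points (SD 3.85, range -6.61 to 8.50), with 24.9% ± 18.7 for human-named and 24.0% ± 17.4 for virus-named probes (SD, n = 14 arrays). It was positive on 8 arrays and negative on 6 (exact permutation p = 0.420), so the share did not differ detectably from that of virus-named probes. These were 2 tests, and the Benjamini-Hochberg adjustment over them gives permutation p = 0.000244 and 0.420. The share above blank spots on at least 10 arrays was 8.30% of human-named probes (20 of 241), 25.1% of mouse-named probes (86 of 343) and 8.60% of virus-named probes (8 of 93).

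The 4 human-named probes above blank spots on every array were hsa-let-7a, hsa-miR-663, hsa-miR-519d and hsa-miR-155. With the median of the spots, or with at least 2 spots above, hsa-miR-155 was not among them. hsa-let-7a gave a net signal of 1035, 715, 954 and 577 intensity units on the nematode IL-4R KO arrays and 1052, 909, 1005 and 318 on the nematode wild type arrays. It gave 526, 760.0 and 713 on the thioglycollate IL-4R KO arrays and 755, 661 and 582 on the thioglycollate wild type arrays. All 4 groups overlap in net signal, and the lowest value was that of nematode wild type replicate 4.

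hsa-miR-663, a miRNA known from primates and with no mouse-named probe of its number on the array, gave 759, 482, 1595 and 455 intensity units in nematode IL-4R KO and 828, 306, 663.4 and 116 in nematode wild type. It gave 319.5, 412 and 282 in thioglycollate IL-4R KO and 579.9, 192 and 167 in thioglycollate wild type. The arrays of a group spread widely, and slide position moved with the value: on 6 of the 7 arrays in the second position 1 of the 3 spots of this probe read 5.02 to 8.84 intensity units while the lower of its other spots read 236 to 708. On the remaining second-position array, nematode wild type replicate 4, it read 112. On the 7 arrays in the first position that spot read 359 to 1438. With this spot left out, an alternative chosen after seeing the spots, no fold change of hsa-miR-663 passed the threshold either.

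hsa-miR-519d comes from the primate-specific chromosome 19 cluster and its human form has the seed of the miR-17 family. It gave 105, 119, 316 and 229 intensity units in nematode IL-4R KO and 308, 285, 169 and 157 in nematode wild type, against 181, 334 and 267 in thioglycollate IL-4R KO and 263, 166 and 140.1 in thioglycollate wild type. The 4 groups overlap.

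hsa-miR-155 had net signals of 71.0, 65.7, 125 and 86.2 intensity units in nematode IL-4R KO and 111, 111, 91.5 and 148 in nematode wild type. The thioglycollate arrays gave 56.2, 60.2 and 51.6 in IL-4R KO and 49.0, 43.0 and 52.6 in wild type. Before normalization all 8 nematode arrays thus lay above all 6 thioglycollate arrays. The value of 148, on nematode wild type replicate 4, rested on 1 spot at 399 intensity units, while the other spots read 27.8 and 17.6, below that array's blank percentile. After quantile normalization the groups overlap: the log2 intensity averaged 6.97 ± 0.31 in nematode IL-4R KO and 6.75 ± 0.04 in thioglycollate IL-4R KO, and 7.11 ± 0.34 in nematode wild type and 6.86 ± 0.20 in thioglycollate wild type (SD, n = 4 nematode and 3 thioglycollate arrays).

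None of these 4 passed the test in any comparison. Each comparison was fitted with limma over all 1308 probes, with Benjamini-Hochberg adjustment, and passed where the adjusted p was under 0.05. For nematode against thioglycollate in IL-4R KO mice the log2 fold change was 0.41 (SE 0.23, adjusted p = 0.668) for hsa-let-7a, 0.91 (SE 0.66, adjusted p = 0.776) for hsa-miR-663, -0.54 (SE 0.24, adjusted p = 0.533) for hsa-miR-519d and 0.22 (SE 0.19, adjusted p = 0.818) for hsa-miR-155. In wild-type mice the same comparison gave 0.31 (95% confidence interval -0.20 to 0.81), 0.04 (-1.39 to 1.47), -0.35 (-0.86 to 0.17) and 0.25 (-0.16 to 0.66) in that order. For IL-4R KO against wild type, log2 fold changes ran between -0.42 for hsa-miR-519d and 0.73 for hsa-miR-663 in nematode cells, and between -0.34 for hsa-let-7a and -0.12 for hsa-miR-155 in thioglycollate cells. The widest intervals, those of hsa-miR-663, allow a change of more than 1 on the log2 scale in either direction in 2 of the 4 comparisons.

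Another 8 members stood above blank spots on 13 of 14 arrays and are named here after their values were seen: hsa-miR-638, hsa-miR-513, hsa-miR-363*, hsa-miR-572, hsa-miR-658, hsa-miR-557, hsa-miR-498 and hsa-miR-659. The array missed was nematode wild type replicate 4 for all 8. Their net signals there were 30.1 to 91.9 intensity units, against a blank percentile of 111. hsa-miR-363*, the passenger strand of a miRNA of the miR-106a cluster, is the one of them whose number has a mouse-named probe, for the other strand. That mouse-named miR-363 probe was above blank spots on 4 arrays, and its log2 intensity had a Pearson r of -0.06 with hsa-miR-363* over the 14 arrays. Across the 28 pairs of the 8 members, log2 intensities had a Pearson r of -0.13 to 0.84 over the 14 arrays, with a median of 0.60. The points share arrays and their normalization. All 8 also had their lowest log2 intensity on nematode wild type replicate 4, the array they missed, which favours a positive r.

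hsa-miR-638, which in human lies within the DNM2 gene, is given here by array. It gave 329, 470.3, 431 and 312 intensity units in nematode IL-4R KO and 795, 271, 255 and 68.3 in nematode wild type, against 216, 239.9 and 129.5 in thioglycollate IL-4R KO and 253, 92.7 and 68.2 in thioglycollate wild type. The nematode IL-4R KO arrays all lay above the thioglycollate IL-4R KO arrays, and the wild-type groups overlap. Its log2 fold change between those knockout groups was 0.82 (SE 0.47, limma adjusted p = 0.675).

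By group of names, the chromosome 19 primate cluster had 42 probes, of which 28 (66.7%) were above blank spots on at least 3 arrays, 5 on at least 10 and 1 on none. Its highest medians over the 14 arrays were those of hsa-miR-519d (205 intensity units), hsa-miR-498 (96.7) and hsa-miR-518c* (59.6). The human X-linked set of miR-506 to miR-514, expressed in testis, had 7 probes, of which 5 were above blank spots on at least 3 arrays. hsa-miR-513 (median 218 intensity units) was the only one above on 10 arrays or more, and hsa-miR-508 (21.9) and hsa-miR-510 (17.7) followed. The 4 probes of the miR-548 family, a large human family derived from transposable elements, were above on no more than 2 arrays. Their medians were 17.0 for hsa-miR-548a, 16.4 for hsa-miR-548b and 11.1 for hsa-miR-548d.

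The numbers miR-549 to miR-662, largely listed from small RNA sequencing of human cells, made up 110 probes. Of these 41 (37.3%) were above blank spots on at least 3 arrays and 18 on none, with hsa-miR-612 (median 329 intensity units), hsa-miR-638 (254) and hsa-miR-572 (157) highest. The median of hsa-miR-612 lies between its values in the first and the second slide position, which are given below. Among 22 star arms, the strand usually discarded when a miRNA is processed, 15 were above on at least 3 arrays, led by hsa-miR-363* (164), hsa-miR-373* (83.7) and hsa-miR-518c*. Among 37 probes for let-7 and miR-1 to miR-389 without a star, the range of long-known conserved miRNAs, 20 (54.1%) were above on at least 3 arrays and 2 on at least 10. These 2 were hsa-let-7a (735 intensity units) and hsa-miR-155 (68.3), and hsa-miR-198 (37.6) came next. Of 28 names that also held a species other than mouse, 17 were above on at least 3 arrays. For comparison, the share above on at least 3 arrays was 49.0% of all 241 members, 67.1% of mouse-named and 43.0% of virus-named probes. Groups of names overlap, and these shares are descriptions.

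Having a mouse-named probe of the same number was not common: 53 of the 241 members had one. Of these, 31 (58.5%) were above blank spots on at least 3 arrays and 4 (7.55%) on at least 10. Of the 188 without one, 87 (46.3%) and 16 (8.51%) were.

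No member passed the threshold in any of the 5 comparisons. For nematode against thioglycollate in wild-type mice, limma called 0 of 241 members, against 0.153% of all 1308 probes. At an unadjusted p under 0.05 there were 12 members (4.98%), 4 higher and 8 lower in nematode cells, against 6.19% of all probes. The normalized log2 intensities of the groups did not overlap for 11 members (4.56%), against 7.65% of all probes. Of the members, 232 had a log2 fold change within 0.5 of zero. The median 95% interval reached 0.26 to either side of the estimate.

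In each comparison the 3 members with the smallest p among those above blank spots on at least 3 arrays are given as values. Some met that minimum only with the group where they were high, as stated for each. Their being named is no support for a difference. hsa-miR-105, X-linked in human, gave 17.3, 21.0, -15.9 and -6.19 intensity units on nematode wild type arrays, against 138, 14.9 and 83.1 on thioglycollate wild type arrays. Replicates 1 and 3 of thioglycollate wild type were high, replicate 2 lay among the nematode values, and the groups overlap. Its log2 fold change was -1.13 (SE 0.32, limma adjusted p = 0.410), and without thioglycollate wild type replicate 2 it was -1.65 (adjusted p = 0.00748). hsa-miR-526c and hsa-miR-519c of the chromosome 19 cluster gave -0.31 (SE 0.10, adjusted p = 0.570) and -0.27 (SE 0.11, adjusted p = 0.778). hsa-miR-105 stood above blank spots on 2 of 3 thioglycollate wild type arrays and on 1 array of each nematode group. hsa-miR-519c did so on 1 thioglycollate wild type array and 2 thioglycollate IL-4R KO arrays. Both met the minimum of 3 arrays only with thioglycollate wild type, the group where they were high.

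For nematode against thioglycollate in IL-4R KO mice, limma again called 0 of 241 members, against 0.306% of all probes. There were 18 members (7.47%) at an unadjusted p under 0.05, 12 higher and 6 lower in nematode cells, against 8.87% of all probes. Groups did not overlap for 32 members (13.3%), against 14.1% of all probes. These shares lie near the background. hsa-miR-373*, the passenger strand of a miRNA of human embryonic stem cells, gave 189, 319, 201 and 103 intensity units on nematode IL-4R KO arrays, all above the 66.9, 68.5 and 86.4 of thioglycollate IL-4R KO arrays. Its log2 fold change was 0.91 (SE 0.26, adjusted p = 0.283), and it passed with cyclic loess in place of quantile normalization (0.94, adjusted p = 0.0301).

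hsa-miR-512-3p of the chromosome 19 cluster gave 191, 222, 17.0 and 34.1 intensity units on nematode IL-4R KO arrays, against 10.7, 11.4 and 15.0 on thioglycollate IL-4R KO arrays. The groups do not overlap, but replicate 1 rested on 1 spot at 535 while the other spots read 20.8 and 17.4. Replicate 2 read 458, 186 and 21.5. It stood above blank spots on 3 of 4 nematode IL-4R KO arrays and on none of the other arrays, so it met the minimum of 3 arrays through the group where it was high, and its being among the members named here is no support for a difference. Its log2 fold change, against background values, was 0.80 (SE 0.24, adjusted p = 0.283). Without nematode IL-4R KO replicate 3 its adjusted p was 0.0422. hsa-miR-369-5p, from the imprinted Dlk1-Dio3 region, gave -0.25 (SE 0.07, adjusted p = 0.283). It stood above blank spots on 2 of 3 thioglycollate IL-4R KO arrays, on 1 thioglycollate wild type array and on no nematode array. It too met the minimum only with the group where it was high.

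For IL-4R KO against wild type in nematode cells, the comparison that bears on alternative activation, limma called 0 of 241 members, against 0.459% of all probes. There were 15 members (6.22%) at an unadjusted p under 0.05, 12 higher and 3 lower in IL-4R KO, against 7.8% of all probes. Groups did not overlap for 8 members (3.32%), against 5.73% of all probes. The members with the smallest p were hsa-miR-512-3p, hsa-miR-373* and hsa-miR-211, of which the first 2 share their nematode IL-4R KO arrays with the comparison above.

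On nematode wild type arrays hsa-miR-512-3p read 12.3, 10.4, 9.80 and 11.7 intensity units, all below the 17.0 to 222 of nematode IL-4R KO and below blank spots on all 4 arrays. Its log2 fold change was 0.77 (SE 0.22, adjusted p = 0.246), with the same limit as above. hsa-miR-373* read 154, 91.5, 81.0 and 67.7 on nematode wild type arrays, overlapping the 103 to 319 of nematode IL-4R KO in net signal but not after normalization (log2 fold change 0.83, SE 0.24, adjusted p = 0.259). hsa-miR-211, which in human lies in the melanocyte gene TRPM1, read 13.4, 33.4, 31.2 and 18.1 in nematode IL-4R KO and 80.9, 31.1, 43.4 and 65.7 in nematode wild type. Those 2 ranges overlap in net signal but not after normalization. It stood above blank spots on 0 of 4 nematode IL-4R KO and 2 of 4 nematode wild type arrays (log2 fold change -0.42, SE 0.13, adjusted p = 0.292).

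For IL-4R KO against wild type in thioglycollate cells, limma called 0 of 241 members, against 0.0765% of all probes. There were 8 members (3.32%) at an unadjusted p under 0.05, 4 higher and 4 lower, against 3.98% of all probes. Groups did not overlap for 38 members (15.8%), against 13.8% of all probes. hsa-miR-584 read 37.0, 82.0 and 83.6 intensity units in thioglycollate IL-4R KO, all above the 21.0, 8.02 and 14.8 of thioglycollate wild type (log2 fold change 0.77, SE 0.20, adjusted p = 0.253). Over the alternative settings its log2 fold change ran between 0.64 and 2.08, and the lowest limma adjusted p was 0.129. hsa-miR-512-5p read 35.1, 39.6 and 38.1 in thioglycollate IL-4R KO, all above the 14.1, 12.1 and 15.3 of thioglycollate wild type (0.43, SE 0.11, adjusted p = 0.301). The log2 fold change of hsa-miR-512-5p ran between 0.36 and 1.38 over the alternative settings. It passed without nematode IL-4R KO replicate 2, which lends its spread to this comparison (0.42, adjusted p = 0.0484). With the same array left out it also passed between genotypes in nematode cells (0.40, adjusted p = 0.0219). hsa-miR-105 read 11.2, 11.98 and 10.6 in thioglycollate IL-4R KO, all below the wild type values given above and below blank spots (log2 fold change -1.15, SE 0.34, adjusted p = 0.443). In thioglycollate wild type it stood above blank spots on 2 of 3 arrays, replicate 2 being the exception, and it met the minimum of 3 arrays only with this group. Without thioglycollate wild type replicate 2 its log2 fold change was -1.67 (adjusted p = 0.0105).

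Only slide 12 held arrays of both thioglycollate genotypes, 1 of each. The IL-4R KO array was in the first position and the wild type array in the second. Genotype and slide position therefore cannot be told apart on this slide. Between them the IL-4R KO minus wild type difference was -1.54 on the log2 scale for hsa-miR-105, 0.39 for hsa-miR-584 and 0.32 for hsa-miR-512-5p, with a median of -0.02 over the 241 members. Every other slide held 1 group, so slide and group cannot be told apart in the remaining comparisons.

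The interaction asked whether the genotype difference differed between elicitations. limma called 0 of 241 members, against 0% of all 1308 probes. There were 6 members (2.49%) at an unadjusted p under 0.05, against 4.05% of all probes. The smallest p among members above blank spots on at least 3 arrays were those of hsa-miR-105 (1.28, SE 0.45), hsa-miR-512-3p (0.84, SE 0.34) and hsa-miR-492 (0.63, SE 0.26), each with an adjusted p of 0.972.

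Slide position was tested on its own. In a fit that held the groups and the position, added after the values of hsa-miR-663 and hsa-miR-612 by position had been seen, limma called 3 of 241 members between the second and the first position, against 0.535% of all probes. Both of these are among the 3, and as they prompted the fit their values are a description: the second position minus the first was -1.48 on the log2 scale (SE 0.23) for hsa-miR-663 and -2.09 (SE 0.33) for hsa-miR-612. hsa-miR-516-5p was higher by 0.46 (SE 0.05, adjusted p = 0.00113). Each group held arrays of both positions. The value of hsa-miR-663 averages log2 intensities over its 3 spots, which differed. The spot described above had a median of 747 intensity units in the first position and 7.80 in the second. The other spots had medians of 617 and 733 in the first position, and 417 and 420 in the second.

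hsa-miR-612 read 21.9, 287, 7.03, 6.38, 88.6, 66.1 and 172 intensity units on the 7 arrays in the second position, against 677, 555, 613, 372, 379, 419 and 410.4 on the 7 arrays in the first. The 2 sets do not overlap, and each holds all 4 groups. Some second-position means of hsa-miR-612 join bright spots and spots at blank level. Its 3 spots read 4.88, 505 and 351 on nematode IL-4R KO replicate 4. They read 9.51, 250 and 6.20 on thioglycollate IL-4R KO replicate 3, and 5.81, 185 and 7.68 on thioglycollate wild type replicate 2. The spots of hsa-miR-516-5p lie in the same block and column of the array as those of hsa-miR-663. This probe read 17.4 to 61.1 intensity units in the second position and 5.52 to 12.995 in the first.

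Members were set beside mouse-named probes of the same number. For miR-155, the human-named and mouse-named probes had a Pearson r of 0.71 over the 14 arrays, which share arrays and normalization, and stood above blank spots on 14 and 13 arrays. Their log2 fold changes were 0.22 and 0.49 for nematode against thioglycollate in IL-4R KO mice and 0.25 and 0.11 in wild-type mice, human-named first, and none passed the threshold. For miR-503, a relative of the miR-16 family, r was 0.44, with 12 and 10 arrays above blank spots. Its log2 fold changes were -0.02 and -0.19 in IL-4R KO mice and -0.37 and -0.28 in wild-type mice, human-named first. For let-7, hsa-let-7a had an r of -0.34 to 0.21 with the 7 mouse-named probes let-7b to let-7g and let-7i, of which let-7c stood above blank spots on 14 arrays, let-7b, let-7d, let-7g and let-7i on 13, let-7f on 6 and let-7e on 4.

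For 2 mouse-named probes that passed the threshold, the human-named relative is given beside them, and the difference between the probes was not tested. Mouse-named miR-422b was lower in nematode IL-4R KO than in nematode wild type cells, by a log2 fold change of -1.99 (SE 0.23, limma adjusted p = 0.000808). hsa-miR-422a, chosen for its number after that call was known, read 18.3, 17.1, 19.1 and 15.3 intensity units in nematode IL-4R KO and 48.9, 24.9, 11.5 and 40.4 in nematode wild type. It stood above blank spots on 0 and 1 of 4 arrays there, the groups overlap, and its log2 fold change was -0.15 (95% confidence interval -0.32 to 0.02, adjusted p = 0.654). Its r with miR-422b was 0.22 over the 14 arrays. In wild-type mice, nematode against thioglycollate gave 0.06 (SE 0.08) for hsa-miR-422a and 1.86 (SE 0.25, adjusted p = 0.00727) for miR-422b. Without background correction neither call of miR-422b held (log2 fold change -1.37, limma adjusted p = 0.0718 between genotypes, and 1.54, adjusted p = 0.143 between elicitations), and the call between elicitations was also lost without thioglycollate wild type replicate 3 (1.85, adjusted p = 0.0653) and with only the groups compared (1.86, adjusted p = 0.587).

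Mouse-named miR-34a, a p53 target, was lower after nematode than after thioglycollate elicitation in IL-4R KO mice (log2 fold change -1.35, SE 0.12, limma adjusted p = 9.24e-05) and higher in IL-4R KO than in wild-type thioglycollate cells (1.16, SE 0.13, adjusted p = 0.00108). The genotype call was lost with plain background subtraction (log2 fold change 2.11, adjusted p = 0.0612) and with only the groups compared (1.16, adjusted p = 0.0730). hsa-miR-34b, whose mouse form carries the same seed as printed above, gave -0.18 (SE 0.15) and -0.07 (SE 0.16), and stood above blank spots on 2 of 14 arrays. hsa-miR-511, which in mouse and human lies in an intron of the mannose receptor gene Mrc1, a marker of alternative activation, stood above blank spots on 1 array, and its largest log2 fold change in the 4 two-group comparisons was 0.07 (SE 0.09). Over all 97 pairs of a member and a mouse-named probe of its number, r ran between -0.69 and 0.71 with a median of -0.04, and 7 pairs were above 0.5.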

How the data were processed

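Peritoneal macrophage RNA was labelled with Hy3 and hybridised to miRCURY LNA arrays, per the labels' protocols. The deposited slide files hold a foreground and a background intensity per spot, per the file headers, and the authors' deposited value table holds their difference, on the same intensity scale, for 5184 spots per array (tolerance 0.001). Scanner settings are not given in the sources used here. Background correction used normexp with an offset of 50. Log2 intensities were averaged over the spots of a probe, quantile normalized over the 1308 named miRNA probes and fitted with limma 3.58.1 in R 4.3.3 as 4 group means over 14 arrays. P-values were adjusted by Benjamini-Hochberg over all 1308 probes, with a threshold of 0.05. Summaries used Python 3.11.15 with pandas 2.3.3 and numpy 2.4.6. The 12 spots named as missing data were left out, and 429 miRPlus spots without a name were not used. Probes were checked against the 95th percentile of blank and negative control spots of the same array.

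The members, gene lists and tests were chosen with earlier results of these data known. Named members are those above blank spots on all 14 arrays, the 3 with the smallest p per comparison among those above blank spots on at least 3 arrays, the 3 with the highest median net signal per list of names, and mouse-named probes of the same number. Lists were the chromosome 19 cluster (miR-498, miR-512, miR-515 to miR-527), the X-linked miR-506 to miR-514 without miR-511 and miR-512, miR-548, miR-549 to miR-662, other-species names, star arms, let-7 and miR-1 to miR-389, and numbers shared with mouse. The fit was tested on simulated data. Alternatives changed the background correction, normalization, spot summary, filter, samples and blocks. Leaving out 1 spot of hsa-miR-663 and testing slide position as a contrast were chosen after seeing the data, the second after hsa-miR-663 and hsa-miR-612 had been seen by position. The number of arrays limits the precision.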

Additional observations from a re-analysis of the deposited data

Results flagged for a closer look

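Among 60 groups of 4 values examined, 2 held a value standing far from the other 3, where chance gives about 1 in 20. hsa-miR-638 had a log2 intensity of 9.21 on nematode IL-4R KO replicate 2, against 8.43 on each of the other 3 arrays of that group. The probe took the same rank, 33, on those 3 arrays and rank 20 on replicate 2, and quantile normalization gives equal ranks equal values. hsa-miR-584 had a log2 intensity of 5.94 on nematode wild type replicate 4, against 6.44 to 6.53 on the other 3 arrays of that group.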

How the results depend on the processing

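Of 1374 recomputed values, 1297 kept their direction and side of the threshold or stayed close. With the 99th percentile of blank spots, 0 members stood above on every array, 22 on at least 3 and 146 on none. With the highest negative control spot these counts were 0, 12 and 209, and with foreground alone 1, 56 and 83. Blank spots alone left 14 members above on no array and the median of the spots 37. With the median of the spots 3 members stood above on every array and 91 on at least 3. With at least 2 spots above, these counts were 3 and 92. Leaving out 1 array moved the count on every array between 4 and 12 and the count on none between 24 and 39, and the count of 12 came without nematode wild type replicate 4. The share of human-named minus virus-named probes turned to -0.54 percentage points with the 99th percentile (permutation p = 0.318), and the difference in median net signal was -0.45 intensity units (permutation p = 0.299).

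Without background correction, limma's count of 0 members became 1 in nematode against thioglycollate IL-4R KO cells, against 4 of all 1308 probes. It also became 1 in nematode IL-4R KO against wild type, against 6 of all 1308 probes. The member was hsa-miR-512-3p in both. In nematode against thioglycollate IL-4R KO cells the count was 3 with cyclic loess (hsa-miR-373*, hsa-miR-498, hsa-miR-557), against 27 of all 1308 probes. With only the groups compared it was 1 there (hsa-miR-557), against 7 of all 1308 probes. The log2 fold change of hsa-miR-557 in that comparison was 0.58 in the main fit, where it did not pass. It passed in 3 of 28 alternatives, with a limma adjusted p between 0.00352 and 0.733 over all of them. Leaving out 1 array gave 0 to 1 in each of the 4 two-group comparisons and 0 for the interaction. The arrays concerned were thioglycollate wild type replicate 2 (hsa-miR-105), nematode IL-4R KO replicates 2 (hsa-miR-512-5p) and 3 (hsa-miR-512-3p), and nematode wild type replicate 4 (hsa-miR-557). Of all 1308 probes, the first omission called 3 (elicitation, wild type) and 2 (genotype, thioglycollate). Without nematode IL-4R KO replicate 2 it was 12 (genotype, nematode) and 6 (genotype, thioglycollate). Without replicate 3 it was 4 (elicitation, IL-4R KO) and 6 (genotype, nematode). Without nematode wild type replicate 4 it was 18 (elicitation, IL-4R KO). The interaction with only the groups compared is the fit of all arrays, and hsa-miR-34b gives no value under the filter on dim probes. The cause was not tested.

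The size of log2 fold changes also depended on the setting. Over the alternatives, hsa-miR-105 ran between -3.17 and -0.83 for nematode against thioglycollate in wild-type mice. In IL-4R KO mice, hsa-miR-512-3p ran between 0.54 and 1.95 for the same comparison. Some log2 fold changes that passed no threshold changed sign. For nematode against thioglycollate in wild-type mice, hsa-miR-526c gave 0.00767 without normalization, hsa-let-7a -0.0707 without background correction, and hsa-miR-519d 0.16 with median scaling, 0.0382 with cyclic loess and 0.23 without normalization. There hsa-miR-663 gave -0.20 without background correction, -0.19 with the median of the spots, -0.21 with slide position and -0.25 from its other 2 spots, and -0.43 to 0.51 leaving out 1 array. hsa-miR-422a ran between -0.00115 and 0.13 leaving out 1 array. For IL-4R KO against wild type in nematode cells, hsa-let-7a gave 0.11 without background correction, 0.11 with median scaling and 0.0833 without normalization, and hsa-miR-155 0.0235 with the median of the spots and -0.25 to 0.000356 leaving out 1 array. In thioglycollate cells, hsa-miR-663 gave 0.0343 with plain subtraction, 0.26 with median scaling, 0.32 without normalization and -0.42 to 0.18 leaving out 1 array. There hsa-miR-519d gave 0.32 with median scaling and 0.37 without normalization, hsa-miR-155 gave 0.0468 and 0.103 under the same settings, and hsa-miR-34b gave 0.00400 without normalization, 0.0641 with the median of the spots and -0.22 to 0.11 leaving out 1 array.

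Same-numbered arrays had correlations of deviations between -0.08 and 0.25, and in no comparison were all of them over 0.1, so the number was not taken to pair arrays. Same-numbered nematode arrays also had the same slide position. For nematode against thioglycollate in wild-type mice the median was 0.15 for same and -0.11 for different numbers. With the replicate block, limma called 0 members in all 5 comparisons. In the order of the report, 9, 26, 21, 12 and 7 of 241 members had an unadjusted p under 0.05. Over all 1308 probes these counts were 68, 132, 130, 54 and 53.

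Slide and group cannot be told apart outside slide 12, and on slide 12 genotype and slide position cannot be told apart.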
